A study of Mus musculus with 9 samples.

Results

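The metalloproteases of the extracellular space and their inhibitors were followed in mouse spinal cord on 3 days around a complete transection at the T9 level. The set held the matrix metalloproteases (MMPs), the membrane-anchored ADAM proteases, the secreted ADAMTS proteases with their ADAMTS-like (ADAMTSL) relatives, and the tissue inhibitors of metalloproteases (TIMPs). Members were taken by symbol, as every gene of the deposited table whose name begins with Mmp, Timp, Adam, Adamts or Adamtsl and a digit. This gave 84 of 34745 genes, made up of 23 Mmp, 4 Timp, 33 Adam, 19 Adamts and 5 Adamtsl genes. Poly-A RNA of spinal cord was sequenced in 9 libraries, 3 for each day. The groups were day 0 (titled Y-N), day 3 (Y-S3d) and day 21 (Y-S21d). The letters Y and N are not explained in the labels, and the Y-N group was taken as day 0 because the design names days 0, 3 and 21. No sham group was among the samples, and no treatment, allele or transgene was named for any group. The sources used here do not give strain, sex, age or the length of cord taken. No source used here says that libraries came from separate animals, so the spread behind the p-values below is that of these samples and may be technical.

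MMPs are zinc-dependent enzymes that cut collagens, laminins, fibronectin, growth factors and cytokines, and they are made with a pro-domain that must be removed before they act. ADAMs shed the outer parts of membrane proteins such as tumour necrosis factor, Notch and cadherins, although several ADAMs of the nervous system lack catalytic activity and serve as receptors at synapses and axons. ADAMTS proteases cut the proteoglycans of the brain and cord matrix or process procollagen and fibrillin-rich fibres, and ADAMTSL proteins lack the protease domain. TIMPs bind the active site of MMPs and of some ADAMs and ADAMTSs. In injured cord these families are known for their roles in the blood-spinal cord barrier, leukocyte entry, scar matrix and the axon-repelling proteoglycans.

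Among the MMPs, 10 genes lie in a cluster on chromosome 9, between positions 7272514 and 7699585 in build GRCm38, a span of 427 kb. These are Mmp13, Mmp12, Mmp1b, Mmp3, Mmp1a, Mmp10, Mmp8, Mmp27, Mmp20 and Mmp7, which include collagenases, stromelysins and macrophage elastase. No count was recorded at day 0 for 8 of them, and 5 of those 8 had counts at a later day. Summed over 3 libraries, Mmp12 had 0, 191 and 719 counts at days 0, 3 and 21, and Mmp3 had 0, 43 and 111. Mmp10 was seen at day 3 alone, with 0, 23 and 0 counts, while Mmp13 had 7, 66 and 47. Mmp8 had 17, 186 and 59 counts and Mmp27 0, 15 and 7, Mmp1a had 1 count at day 3, and Mmp1b, Mmp7 and Mmp20 had none in any library. Neighbouring genes of the same cluster reached their highest count on different days, or were not detected.

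The promoters of this cluster are shown because AP-1, a factor formed by Fos and Jun proteins, is known to act on stromelysin and collagenase genes. RefSeq windows (GRCm38.p6) of 250 bases before to 50 bases after the start site were searched for the AP-1 motif TGANTCA, which reads the same on both strands. The motif was in 13 of 53 members with a window (24.5%), beside 2425 of 27025 genes (8.97%), and in 13 of 58 windows of members (22.4%), beside 2565 of 32851 windows (7.81%). Of the 10 clustered genes 8 held it, the exceptions being Mmp8 and Mmp27. The other members with a match were Adam1b, Adam19, Adam20, Adam25 and Adam29. Most matches among members thus lay in this cluster. Of the genes with a match, Mmp1b, Mmp7, Mmp20, Adam1b, Adam20, Adam25 and Adam29 had no count in any library. Windows of Timp1, Mmp14, Adam8 and Adamts1 held no match, and Mmp2 had no window. The sequences below are the 250 bases before the start site of the clustered genes that held the motif and had more than 1 count, with the motif in capitals. They lie on the plus strand at chr9:7445572-7445821, chr9:7502092-7502341, chr9:7347124-7347373 and chr9:7272264-7272513.
Mmp3: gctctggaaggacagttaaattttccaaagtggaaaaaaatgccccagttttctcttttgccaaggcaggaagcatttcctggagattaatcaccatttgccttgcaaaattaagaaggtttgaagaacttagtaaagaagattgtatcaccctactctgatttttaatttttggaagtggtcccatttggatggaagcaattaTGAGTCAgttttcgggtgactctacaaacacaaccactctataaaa
Mmp10: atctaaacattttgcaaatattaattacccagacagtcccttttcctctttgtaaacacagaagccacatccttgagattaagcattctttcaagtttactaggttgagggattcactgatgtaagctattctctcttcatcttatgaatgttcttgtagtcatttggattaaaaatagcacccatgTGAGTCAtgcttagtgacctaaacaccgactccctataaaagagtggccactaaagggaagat
Mmp12: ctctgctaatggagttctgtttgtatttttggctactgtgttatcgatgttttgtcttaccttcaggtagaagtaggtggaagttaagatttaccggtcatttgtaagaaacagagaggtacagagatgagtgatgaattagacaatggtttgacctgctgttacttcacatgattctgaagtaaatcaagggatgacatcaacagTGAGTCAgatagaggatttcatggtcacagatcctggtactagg
Mmp13: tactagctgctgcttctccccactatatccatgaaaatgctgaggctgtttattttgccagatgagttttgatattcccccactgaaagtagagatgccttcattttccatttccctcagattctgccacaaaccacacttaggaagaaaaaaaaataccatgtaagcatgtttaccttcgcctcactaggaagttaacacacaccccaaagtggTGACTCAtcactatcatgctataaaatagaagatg
The motif began 46 bases before the start site in Mmp3, 63 in Mmp10, 44 in Mmp12 and 35 in Mmp13. The RefSeq start of Mmp12 lies inside the locus that the deposited table gives for the gene. A match is a description of these letters and not a measured binding site.

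Library totals ran from 14299679 to 24022923 counts. Markers of neurons, oligodendrocytes and astrocytes were present in every library, as the label of spinal cord requires. Within a day, log2 counts of the tested genes after TMM scaling of the libraries correlated between library pairs at 0.985 to 0.989. The exception was day 21 replicate 2, which correlated at 0.943 and 0.935 with the other day 21 libraries. Day 21 replicate 2 had the lowest sample weight (0.0583), and day 0 replicate 1 the next lowest (0.354). Calls at day 21 that differ without day 21 replicate 2 are given below. In bulk tissue, fewer cells of a type and less RNA per cell cannot be told apart.

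Of the 84 members, 69 had at least 1 count and 59 passed the expression filter of edgeR and were tested. The 59 include genes that passed only through later libraries, where they were high. Among these are Mmp3 and Mmp12, with no count at day 0, and Mmp13, Adam5 and Mmp8, with 7, 7 and 17 counts over day 0. The counts below describe the tested genes and not all members, and the shares called higher include such genes. At day 3 against day 0, 34 of 59 tested members were higher (57.6%) and 9 were lower (15.3%) at an edgeR adjusted p under 0.05, called here. Over all 16494 tested genes, 24.8% were called higher and 19.5% lower, and the median log2 fold change was 0.86 for the members and 0.01 for all genes. At day 21 against day 0, 21 members were higher (35.6%) and 7 lower (11.9%), beside 17.9% and 11.3% of all genes, with medians of 0.32 and 0.02. At day 21 against day 3, 8 members were higher (13.6%) and 25 lower (42.4%), beside 11.7% and 16.1% of all genes, with medians of -0.42 and 0.02. These comparisons share libraries in pairs and are not independent of each other. Mean level was highest at day 3 for 34 tested members, at day 21 for 15 and at day 0 for 10. Without day 21 replicate 2, 33 members (55.9%) were higher and 8 (13.6%) lower at day 21 than at day 0, beside 25.1% and 22.4% of all genes. In the same fit 16 members (27.1%) were higher and 30 (50.8%) lower at day 21 than at day 3, beside 23.5% and 25.7% of all genes, so the share of members higher is near that of all genes.

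**Figure D1:**
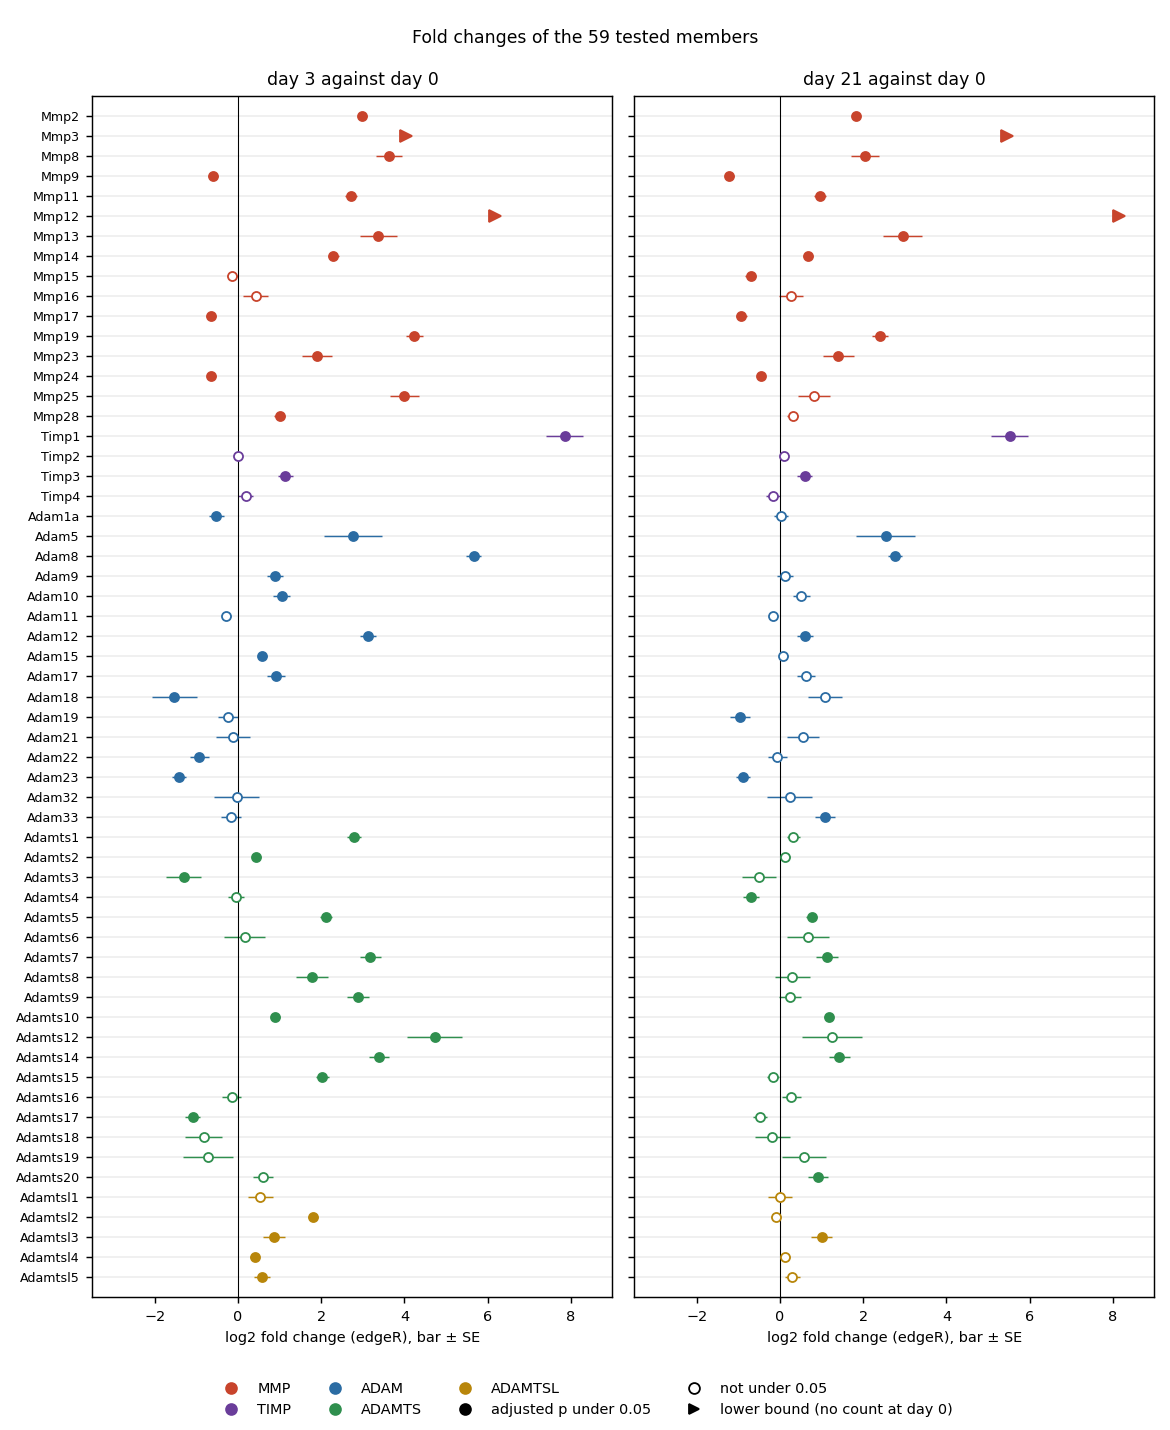
Log2 fold changes of the 59 tested members (edgeR, bars ± SE) at day 3 against day 0 on the left and at day 21 against day 0 on the right, coloured by family, with filled points for an adjusted p under 0.05 and triangles for lower bounds of genes without a count at day 0. The 34 members called higher at day 3 include most MMP and ADAMTS genes tested. In the left panel Timp1 lies farthest to the right at 7.85, with Mmp3 and Mmp12 drawn only at their lower bounds.

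Levels are given in FPKM (fragments per kilobase of gene, scaled to the library total). The gene lengths used are not given, and levels compared between genes, family sums and shares depend on them. At day 21, for example, Mmp12 averaged 1.62 FPKM on 719 counts and Mmp3 1.4 FPKM on 111 counts. Summed over each family, MMP transcripts were at 55.7 ± 1.1, 115 ± 1.87 and 61.7 ± 0.551 FPKM at days 0, 3 and 21 (mean ± SD, n = 3 for each day, as in all values below). TIMP transcripts were more abundant than those of any protease family, at 187 ± 4.31, 304 ± 3.69 and 242 ± 5.5 FPKM. The ADAM sum was 77 ± 0.736, 107 ± 3.16 and 80.7 ± 11.2 FPKM. The day 3 libraries lay above the others in each of these families. ADAMTS genes summed to 44.2 ± 0.87, 87.6 ± 0.317 and 43.8 ± 9.83 FPKM, and ADAMTSL genes to 13.5 ± 0.721, 20.9 ± 1.8 and 16.3 ± 0.858 FPKM. For ADAMTS the wide day 21 spread came from replicate 2 at 32.5 FPKM, below the 49.1 and 49.9 FPKM of replicates 1 and 3.

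**Figure D2:**
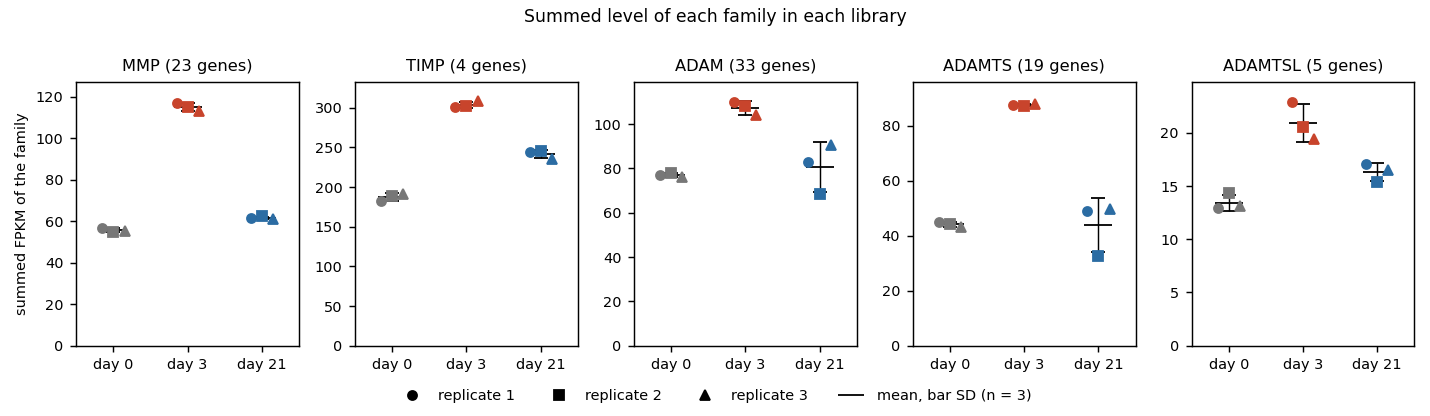
Summed FPKM of each family in each library (points, shaped by replicate number) with mean and SD (n = 3) at days 0, 3 and 21. Every day 3 library lies above every day 0 and day 21 library in all 5 families, and day 21 replicate 2 lies low for ADAM (68.4 FPKM) and ADAMTS (32.5 FPKM).

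Among the inhibitors, Timp1 on the X chromosome (positions 20870166 to 20874735) changed most. It is induced by inflammatory cytokines in many cell types and inhibits most secreted MMPs. Timp1 stood at 0.451, 0.321 and 0.246 FPKM in the day 0 libraries, at 81.9, 86.1 and 85.5 at day 3, and at 14.2, 28.8 and 10.1 at day 21. The 3 days did not overlap, and day 21 replicate 2 was the highest library of its day. Day 3 exceeded day 0 by a log2 fold change of 7.85 ± 0.45 (SE, edgeR adjusted p 1.64e-06), a 231-fold difference. Day 21 exceeded day 0 by 5.52 ± 0.44 (edgeR adjusted p 3.1e-05), or by 4.99 without day 21 replicate 2, and lay below day 3 with a log2 fold change of -2.34 ± 0.32 (edgeR adjusted p 0.000956). Timp1 made up 0.181%, 27.8% and 7.32% of TIMP FPKM at days 0, 3 and 21.

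Timp2, which takes part in activating pro-MMP2 on the cell surface, was the most abundant member in all 9 libraries. It stood at 149, 155 and 158 FPKM at day 0, 160, 155 and 164 at day 3, and 184, 176 and 178 at day 21. Its day 21 libraries lay above the rest in FPKM, but Timp2 was not called in any comparison. It made up 82.1%, 52.7% and 74.3% of TIMP FPKM at days 0, 3 and 21. Timp3, which is bound to the matrix and also inhibits ADAM17 and ADAMTS proteases, stood at 16.8, 19.2 and 18.8 FPKM at day 0, 41.7, 42.9 and 40.9 at day 3, and 34, 21.3 and 34.6 at day 21. Day 3 lay above all other libraries, with a log2 fold change against day 0 of 1.14 ± 0.19 (edgeR adjusted p 0.00105). Day 21 was higher than day 0 by 0.59 ± 0.19 (edgeR adjusted p 0.0415), or by 0.79 without day 21 replicate 2 (edgeR adjusted p 3.27e-05). The call was lost when any other library was left out, with adjusted p up to 0.126. Of the exon bases of Timp3, 21.3% overlap the synapsin gene Syn3 on the opposite strand, and its counts are uncertain since use of strand is not given. Timp4, an inhibitor of narrower tissue range, stood at 16.6, 14.2 and 13.8 FPKM at day 0, 17.1, 18 and 17.3 at day 3, and 11.8, 19.4 and 12.3 at day 21. It was not called, and at day 21 the other libraries lay below every day 0 library while replicate 2 lay above them. Without day 21 replicate 2, Timp4 was lower at day 21 than at day 0 (log2 fold change -0.41, edgeR adjusted p 0.00167).

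**Figure D3:**
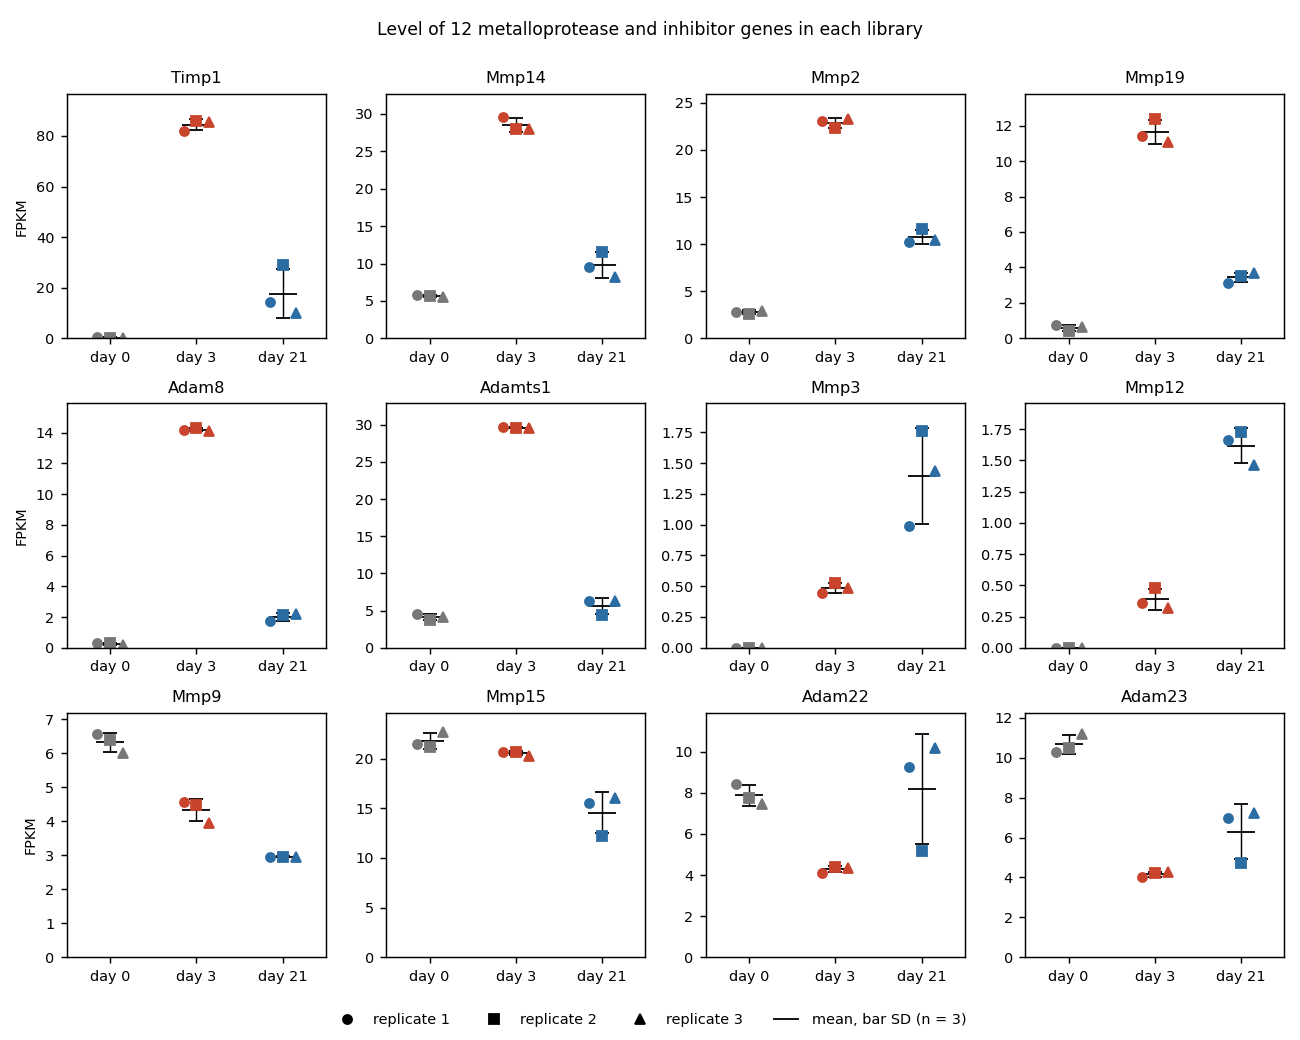
FPKM of 12 members in each library (points, shaped by replicate number) with mean and SD (n = 3) at days 0, 3 and 21, each panel with its own axis from 0. Timp1, Mmp14, Mmp2, Mmp19, Adam8 and Adamts1 peak at day 3, Mmp3 and Mmp12 are highest at day 21, Mmp9 is lower on each later day, and Adam22 and Adam23 are lowest at day 3.

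Of the 16 tested MMP genes, 11 were higher and 3 lower at day 3 than at day 0 (median log2 fold change 2.50), and 9 were higher and 4 lower at day 21 than at day 0 (median 0.89). At day 3 these were 68.8% and 18.8%, beside 24.8% and 19.5% of all genes. At day 21 they were 56.2% and 25%, beside 17.9% and 11.3%. The gelatinases are MMP2 and MMP9, which cut denatured collagen and basement membrane collagen, and they went in opposite directions. Mmp2 (chromosome 8, 92827328 to 92853417) stood at 2.84, 2.55 and 2.93 FPKM at day 0, 23.1, 22.3 and 23.3 at day 3, and 10.2, 11.6 and 10.4 at day 21. Its days did not overlap, with a log2 fold change of 2.99 ± 0.11 at day 3 against day 0 (edgeR adjusted p 1.19e-07) and 1.82 ± 0.10 at day 21 against day 0 (edgeR adjusted p 4.4e-06). Mmp9 (chromosome 2, 164940780 to 164955850) stood at 6.56, 6.4 and 6.02 FPKM at day 0, 4.57, 4.47 and 3.96 at day 3, and 2.94, 2.96 and 2.96 at day 21. Each later day lay wholly below the one before. Mmp9 fell at day 3 against day 0 (-0.60 ± 0.11, edgeR adjusted p 0.00153), at day 21 against day 0 (-1.22 ± 0.11, edgeR adjusted p 5.64e-05) and at day 21 against day 3 (-0.62 ± 0.11, edgeR adjusted p 0.00308), and was the only member lower in all 3 comparisons.

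The collagenases and stromelysins, which open fibrillar collagen and cut a wide range of matrix proteins, were low at day 0. Neutrophil collagenase Mmp8 stood at 0.153, 0.103 and 0.0926 FPKM at day 0, 1.77, 1.48 and 1.39 at day 3, and 0.44, 0.448 and 0.741 at day 21. The days were separate, with log2 fold changes of 3.62 ± 0.31 at day 3 against day 0 (edgeR adjusted p 1.64e-05) and 2.04 ± 0.33 at day 21 against day 0 (edgeR adjusted p 0.00204). Mmp13, another collagenase, averaged 0.0409, 0.503 and 0.396 FPKM at days 0, 3 and 21 and was higher on both later days (3.37 ± 0.45 and 2.95 ± 0.47 against day 0, edgeR adjusted p 0.00029 and 0.00179). These values rest on 7 counts at day 0 and are 4.24 and 3.85 without day 0 replicate 1. Stromelysin-1, Mmp3, was at 0 in all day 0 libraries, at 0.449, 0.527 and 0.485 FPKM at day 3, and at 0.988, 1.76 and 1.44 at day 21. With a floor of 3 counts over the group at day 0, it was at least 16.3-fold higher at day 3 (edgeR adjusted p 0.000224) and at least 43.9-fold higher at day 21 (edgeR adjusted p 0.000104). These bounds cover counting error only. Between the later days, Mmp3 was higher at day 21 than at day 3 by 1.43 ± 0.29 (edgeR adjusted p 0.0112, but 0.0524 without day 3 replicate 1). Mmp10, stromelysin-2, had 0.47, 0.0973 and 0.273 FPKM at day 3 and was at 0 in the 6 other libraries, at least 8.71-fold above the day 0 floor, but it was too low for the test. The stromelysin-like furin-activated Mmp11 averaged 0.673 ± 0.099, 4.59 ± 0.318 and 1.42 ± 0.124 FPKM at days 0, 3 and 21, and was higher at day 3 than at day 0 by 2.72 ± 0.15 (edgeR adjusted p 1.29e-06).

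Macrophage elastase, Mmp12, like Mmp3, was highest at day 21. It was at 0 in all day 0 libraries, at 0.362, 0.482 and 0.317 FPKM at day 3, and at 1.66, 1.73 and 1.46 at day 21. The lowest day 21 library lay above the highest day 3 library. Mmp12 was at least 72.3-fold higher at day 3 than the day 0 floor (edgeR adjusted p 8.92e-06) and at least 284-fold higher at day 21 (edgeR adjusted p 5.93e-06), and it was higher at day 21 than at day 3 by 1.98 ± 0.20 (edgeR adjusted p 0.000502). Mmp3 and Mmp12 were the only members called higher in all 3 comparisons. Mmp19, an MMP of macrophages and vessels, instead peaked early, at 0.732, 0.391 and 0.633 FPKM at day 0, 11.4, 12.4 and 11.1 at day 3, and 3.15, 3.51 and 3.67 at day 21. It was 18.8-fold higher at day 3 than at day 0 (log2 fold change 4.24 ± 0.20, edgeR adjusted p 5.5e-07) and higher at day 21 than at day 0 by 2.41 ± 0.19 (edgeR adjusted p 3.57e-05), though 28.3% of its exon bases overlap Tmem198b on the opposite strand. Markers of monocytes and macrophages were also higher on both later days. All 8 in the list were called higher at day 3 than at day 0 and 7 at day 21 than at day 0, and their summed level was 22.3 to 24.5, 750 to 762 and 497 to 722 FPKM at days 0, 3 and 21. At day 21 against day 3, where Mmp12 was higher, 5 of the 8 were lower and none higher. No marker of that list lacked counts on any day, and its part in the MMP results was not tested.

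The membrane-type MMPs act at the cell surface, and MMP14 is the main activator of pro-MMP2. Mmp14 (chromosome 14, 54431612 to 54441265) stood at 5.73, 5.65 and 5.5 FPKM at day 0, 29.6, 28 and 28 at day 3, and 9.51, 11.6 and 8.23 at day 21. The days did not overlap, and day 3 exceeded day 0 by 2.29 ± 0.13 (edgeR adjusted p 1.21e-06) and day 21 exceeded day 0 by 0.67 ± 0.12 (edgeR adjusted p 0.00368). At day 3 Mmp14 and Mmp2 made up 24.8% and 19.9% of MMP FPKM. Of the other transmembrane members, Mmp15 and Mmp24 took a different course from Mmp14. Mmp15, the most abundant MMP at day 0 with 39.1% of MMP FPKM, stood at 21.5, 21.2 and 22.7 FPKM at day 0, 20.7, 20.7 and 20.3 at day 3, and 15.5, 12.2 and 16 at day 21. It was lower at day 21 than at day 0 (-0.70 ± 0.13, edgeR adjusted p 0.00367) and than at day 3 (-0.57 ± 0.13, edgeR adjusted p 0.0112). Mmp24, which is expressed in neurons, stood at 7.54, 6.92 and 6.91 FPKM at day 0, 4.7, 5.06 and 4.41 at day 3, and 5.66, 5.4 and 5.97 at day 21. It was lower at day 3 than at day 0 (-0.64 ± 0.10, edgeR adjusted p 0.000899) with no overlap. At day 21 against day 0 it was lower by a log2 fold change of -0.45 (edgeR adjusted p 0.0112, but 0.0522 in a fit of those days alone).

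The membrane-type MMPs held by a lipid anchor are MMP17 and MMP25, and they differed in direction. Mmp17 stood at 8.24, 8.17 and 7.73 FPKM at day 0, 5.83, 4.86 and 5.2 at day 3, and 5.13, 4.07 and 4.55 at day 21. Both later days lay below day 0, with log2 fold changes of -0.66 ± 0.12 at day 3 (edgeR adjusted p 0.00231) and -0.93 ± 0.13 at day 21 (edgeR adjusted p 0.000697). Mmp25, known as leukolysin from leukocytes, stood at 0.234, 0.226 and 0.202 FPKM at day 0, 3.35, 3.82 and 3.94 at day 3, and 0.395, 0.204 and 0.684 at day 21. Day 3 lay above day 0 (log2 fold change 4.0 ± 0.35, edgeR adjusted p 1.98e-05), and day 21 lay below day 3 by a log2 fold change of -3.18 ± 0.33 (edgeR adjusted p 0.0002), while day 21 overlapped day 0 through replicate 2 alone. Without day 21 replicate 2, Mmp25 was higher at day 21 than at day 0 by 1.16 (edgeR adjusted p 0.006). Neutrophil markers rose with Mmp8 and Mmp25 at day 3, with 7 of 9 tested called higher than at day 0. All 9 were called higher at day 21 than at day 0. Mmp8 and Mmp25 were lower at day 21 than at day 3, whereas 2 of the 9 markers were higher and none lower. Summed over the list, the level was 11.3 to 16.7, 50.4 to 56.2 and 58.3 to 115 FPKM at days 0, 3 and 21 (66.6 FPKM as the highest at day 21 without replicate 2), with none of the 10 markers without counts on any day. Their part in the MMP values was not tested. Mmp23 and Mmp28 averaged 2.38 and 2.31 FPKM at day 3 against 0.614 and 1.12 FPKM at day 0, and both were higher (1.89 ± 0.36 and 1.0 ± 0.13, edgeR adjusted p 0.00251 and 0.00026). Mmp23 was also higher at day 21 than at day 0 (1.40, edgeR adjusted p 0.0196), a call lost without day 0 replicate 2 or 3. Its day 21 replicate 2 stood at 3 FPKM against 1.39 and 0.984 in the other libraries of that day. Without replicate 2 its values were 0.84 at day 21 against day 0 and -1.05 at day 21 against day 3 (edgeR adjusted p 0.00965 and 0.00184). Mmp16, a further transmembrane member, averaged 0.656, 0.909 and 0.851 FPKM at days 0, 3 and 21 and was not called. Without day 21 replicate 2, Mmp16 was higher than day 0 at day 3 (0.41, edgeR adjusted p 0.0156) and at day 21 (0.56, edgeR adjusted p 0.00824).

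Of the 16 tested ADAM genes, 7 were higher and 4 lower at day 3 than at day 0, with a median log2 fold change of -0.07. These were 43.8% and 25%, beside 24.8% and 19.5% of all genes. Adam8, an ADAM of myeloid cells, was by far the most changed. It stood at 0.299, 0.317 and 0.195 FPKM at day 0, 14.2, 14.3 and 14.1 at day 3, and 1.73, 2.11 and 2.17 at day 21. Its days did not overlap and the day 3 libraries were nearly equal. Adam8 was 50.5-fold higher at day 3 than at day 0 (5.66 ± 0.19, edgeR adjusted p 8.89e-08), 6.78-fold higher at day 21 than at day 0 (2.76 ± 0.17, edgeR adjusted p 8.09e-06) and lower at day 21 than at day 3 (-2.90 ± 0.16, edgeR adjusted p 7.23e-06). Adam12, which occurs in mesenchymal cells and regenerating muscle, stood at 0.301, 0.349 and 0.316 FPKM at day 0, 3.06, 2.79 and 2.88 at day 3, and 0.531, 0.404 and 0.659 at day 21. The days were separate, with 3.12 ± 0.19 at day 3 against day 0 (edgeR adjusted p 2.21e-06) and -2.52 ± 0.19 at day 21 against day 3 (edgeR adjusted p 3.38e-05). Its call at day 21 against day 0 (0.60, edgeR adjusted p 0.0403) was lost under 12 of 19 alternatives, among them leaving out any library other than day 21 replicate 2. Without day 21 replicate 2 the value was 0.78 (edgeR adjusted p 0.0011).

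The broadly expressed sheddases changed less. Adam10, the main sheddase of Notch and the amyloid precursor protein, stood at 8.75, 8.6 and 6.3 FPKM at day 0, 16.8, 17.4 and 16.6 at day 3, and 10.3, 10.3 and 16 at day 21. Adam17, which releases tumour necrosis factor, stood at 2.05, 2.13 and 2.02 FPKM at day 0, 4.75, 2.76 and 4.62 at day 3, and 3.52, 2.92 and 4.03 at day 21. Both were higher at day 3 than at day 0 without overlap (1.05 ± 0.20 and 0.91 ± 0.21, edgeR adjusted p 0.00212 and 0.00718), and neither was called at day 21 against day 0. Without day 21 replicate 2, both were called higher at day 21 than at day 0, by 0.62 and 0.76 (edgeR adjusted p 0.0275 and 0.0193). Adam9 and Adam15 averaged 22.5 and 15.4 FPKM at day 3 against 11.7 and 9.88 FPKM at day 0 and were higher by 0.89 ± 0.20 and 0.58 ± 0.11 (edgeR adjusted p 0.00655 and 0.00209). Of the exon bases of Adam15, 20.6% overlap 4731419I09Rik on the opposite strand.

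The ADAMs that lack protease activity and bind LGI proteins at synapses and axons went the other way. Adam22 (chromosome 5, 8072352 to 8368160) stood at 8.45, 7.76 and 7.46 FPKM at day 0, 4.12, 4.41 and 4.34 at day 3, and 9.26, 5.15 and 10.2 at day 21. Day 3 lay below every other library, while at day 21 replicates 1 and 3 lay above day 0 and replicate 2 below it. Adam22 was lower at day 3 than at day 0 (-0.93 ± 0.23, edgeR adjusted p 0.00882) and higher at day 21 than at day 3 (0.87 ± 0.23, edgeR adjusted p 0.0203). Leaving out any 1 day 3 library, or day 21 replicate 1 or 3, ended the second call (adjusted p up to 0.0742). Without day 21 replicate 2 the value was 1.12 (edgeR adjusted p 1.73e-06). Adam23 (chromosome 1, 63445891 to 63596276) stood at 10.3, 10.5 and 11.2 FPKM at day 0, 4.01, 4.21 and 4.25 at day 3, and 6.96, 4.73 and 7.21 at day 21. Its days did not overlap, and it was lower than at day 0 both at day 3 (-1.41 ± 0.17, edgeR adjusted p 0.000137) and at day 21 (-0.88 ± 0.17, edgeR adjusted p 0.0041). Adam23 was higher at day 21 than at day 3 by 0.53 ± 0.16 (edgeR adjusted p 0.0402), or by 0.71 without day 21 replicate 2 (edgeR adjusted p 2.71e-05). The call was lost under 9 of 19 alternatives, including the loss of any day 3 library, of day 0 replicate 2 or 3 and of day 21 replicate 1 or 3. Adam11, the third member of this group, averaged 13.6 ± 0.576, 11.6 ± 0.0487 and 13.3 ± 1.16 FPKM at days 0, 3 and 21 and was not called. All 8 neuron markers were lower at day 3 than at day 0 and 7 at day 21 than at day 0, and their summed level was 2525 to 2545, 1247 to 1259 and 1618 to 1805 FPKM at days 0, 3 and 21. Sensory neuron markers did not move with them, with 6 of 8 higher and none lower at day 3 than at day 0, 4 higher and none lower at day 21 than at day 0, and summed levels of 57.4 to 67.8, 115 to 118 and 58.8 to 99.4 FPKM at days 0, 3 and 21. No neuron marker lacked counts, and the part of the neuron marker difference in the Adam22 and Adam23 values was not tested.

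Adam19, an ADAM that cuts neuregulins, stood at 8.83, 10.7 and 10.8 FPKM at day 0, 9.37, 9 and 8.25 at day 3, and 6.68, 3.52 and 6.77 at day 21. Day 21 lay below both other days, and it was lower than day 0 by a log2 fold change of -0.96 ± 0.24 (edgeR adjusted p 0.017). Without day 21 replicate 2 the value was -0.70 (edgeR adjusted p 0.00079). The call was lost without day 0 replicate 2 or 3 (adjusted p up to 0.0592). Adam1a, a gene of the sperm surface proteases, was at 1.79, 1.56 and 1.79 FPKM at day 0, 1.23, 1.21 and 1.27 at day 3, and 1.67, 1.65 and 2.38 at day 21. Day 3 lay below all other libraries, but its counts are uncertain because 63.7% of its exon bases overlap Gm42878, Tmem116 and Mapkapk5. Its calls at day 3 against day 0 (-0.52 ± 0.18, edgeR adjusted p 0.0385) and at day 21 against day 3 (0.55 ± 0.18, edgeR adjusted p 0.0472) were lost without any 1 of the libraries of those days, save day 21 replicate 2. Adam33 averaged 0.332 ± 0.0594, 0.304 ± 0.083 and 0.774 ± 0.133 FPKM at days 0, 3 and 21, and was higher at day 21 than at day 0 and than at day 3 (1.09 ± 0.24 and 1.27, edgeR adjusted p 0.00845 and 0.00481). Skeletal muscle markers were also higher at day 21 than at day 0, in 8 of 8 cases, with summed levels of 15.1 to 19.2, 7.83 to 8.28 and 122 to 203 FPKM at days 0, 3 and 21 and none without counts. Their part in the values of Adam33, Adam12 and Adam19 was not tested.

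Of the 18 tested ADAMTS genes, 10 were higher and 2 lower at day 3 than at day 0 (median 0.74), while 5 were higher and 1 lower at day 21 than at day 0 (median 0.30). At day 3 these were 55.6% and 11.1%, beside 24.8% and 19.5% of all genes. At day 21 they were 27.8% and 5.56%, beside 17.9% and 11.3%. The members that cut aggrecan, brevican and versican, the proteoglycans of the perineuronal matrix, include ADAMTS1, 4, 5, 8, 9, 15 and 20. Adamts1 (chromosome 16, 85793827 to 85803113) stood at 4.6, 3.77 and 4.07 FPKM at day 0, 29.7, 29.6 and 29.5 at day 3, and 6.26, 4.36 and 6.27 at day 21. Day 3 stood far above the rest and day 21 overlapped day 0 through replicate 2 alone, with log2 fold changes of 2.79 ± 0.16 at day 3 against day 0 (edgeR adjusted p 1.83e-06) and -2.46 ± 0.16 at day 21 against day 3 (edgeR adjusted p 1.94e-05). Without day 21 replicate 2, Adamts1 was higher at day 21 than at day 0 by 0.48 (edgeR adjusted p 0.000576). Adamts4 (chromosome 1, 171250421 to 171260637), the most abundant ADAMTS gene at day 0, showed no such peak. It stood at 25.7, 25.7 and 24.8 FPKM at day 0, 25.5, 25 and 25.9 at day 3, and 20, 11.8 and 19.4 at day 21. Day 21 lay below both other days, by a log2 fold change of -0.69 ± 0.19 against day 0 (edgeR adjusted p 0.0239) and -0.64 ± 0.19 against day 3 (edgeR adjusted p 0.0333). Without day 21 replicate 2 these values were -0.48 and -0.43 (edgeR adjusted p 0.000141 and 0.000263). Leaving out any 1 day 0 library ended the call against day 0 (adjusted p up to 0.0802), and leaving out any 1 library of day 0 or day 3 ended the call against day 3 (up to 0.0924). The share of ADAMTS FPKM was 57.5%, 29.1% and 39% for Adamts4 at days 0, 3 and 21 and 9.39%, 33.8% and 12.8% for Adamts1.

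Adamts9 stood at 0.454, 0.474 and 0.46 FPKM at day 0, 3.49, 3.62 and 3.57 at day 3, and 0.674, 0.337 and 0.77 at day 21. Its day 3 libraries were separate from all others (2.89 ± 0.27 at day 3 against day 0 and -2.65 ± 0.27 at day 21 against day 3, edgeR adjusted p 2.87e-05 and 0.000163). Day 21 overlapped day 0 through replicate 2 alone, without which Adamts9 was higher at day 21 than at day 0 by 0.53 (edgeR adjusted p 0.00117). Adamts5, Adamts15 and Adamts8 averaged 6.01, 3.52 and 0.67 FPKM at day 3 against 1.34, 0.834 and 0.192 at day 0, and all were higher (2.12 ± 0.14, 2.03 ± 0.15 and 1.78 ± 0.39, edgeR adjusted p 3.59e-06, 5.48e-06 and 0.00502). Adamts5 was still higher at day 21 than at day 0 (2.46 against 1.34 FPKM, log2 fold change 0.76, edgeR adjusted p 0.00367). Adamts20 averaged 1.3, 2.03 and 2.66 FPKM at days 0, 3 and 21 and was called at day 21 against day 0 (0.91, edgeR adjusted p 0.0199), a call lost without day 0 replicate 2 or 3 or day 21 replicate 1 or 3. Without day 21 replicate 2 the value was 1.17 (edgeR adjusted p 8.63e-06). Of the substrates of this group, brevican (Bcan) and aggrecan (Acan) were lower at day 3 than at day 0, at 19.5 against 46.6 FPKM and 2.38 against 4.62 FPKM (-1.31 ± 0.19 and -1.01 ± 0.15, edgeR adjusted p 0.000517 and 0.000589). Versican (Vcan) was higher, at 4.23 against 1.17 FPKM (1.80 ± 0.26, edgeR adjusted p 0.000471), and neurocan (Ncan) was not called at day 3.

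Adamts12, which cuts cartilage oligomeric matrix protein, stood at 0.107, 0.102 and 0.0911 FPKM at day 0, 2.54, 2.64 and 3.15 at day 3, and 0.407, 0.011 and 0.348 at day 21. Day 3 was 26.5-fold above day 0 (4.73 ± 0.66, edgeR adjusted p 0.000359) and day 21 lay below day 3 (-3.49 ± 0.60, edgeR adjusted p 0.00298), while day 21 replicate 2 lay below all day 0 libraries and the other day 21 libraries above them. Without that library Adamts12 was higher at day 21 than at day 0 by 1.80 (edgeR adjusted p 0.000123), a comparison it otherwise did not pass. Its relative Adamts7 averaged 0.752 FPKM at day 3 against 0.0803 at day 0 and was higher by 3.18 ± 0.25 (edgeR adjusted p 1.17e-05). Among the procollagen processing enzymes, Adamts14 and Adamts2 averaged 1.45 and 5.58 FPKM at day 3 against 0.135 and 3.96 at day 0 and were higher (3.39 ± 0.24 and 0.44 ± 0.11, edgeR adjusted p 4.73e-06 and 0.00828). Adamts3, of the same group, stood at 2.15, 2.09 and 2.32 FPKM at day 0, 1.02, 1.01 and 0.713 at day 3, and 2.01, 0.595 and 2.4 at day 21. Its day 3 libraries lay below day 0 (-1.31 ± 0.42, edgeR adjusted p 0.0309), but the call was lost without any 1 of those 6 libraries (adjusted p up to 0.104). Without day 21 replicate 2 the value was again -1.31 (edgeR adjusted p 3.37e-05). Adamts10, which binds fibrillin fibres, averaged 1.67 ± 0.092, 3.24 ± 0.18 and 4.1 ± 0.11 FPKM at days 0, 3 and 21 and was higher at day 3 (0.90 ± 0.10, edgeR adjusted p 8.34e-05) and at day 21 (1.17 ± 0.10, edgeR adjusted p 4.64e-05) than at day 0. Adamts17 was lower at day 3 than at day 0, at 0.257 against 0.526 FPKM (-1.09 ± 0.18, edgeR adjusted p 0.000939).

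All 5 ADAMTSL genes were tested. At day 3 against day 0, 4 were higher (80%) and none lower, beside 24.8% and 19.5% of all genes. Adamtsl4, a fibrillin-binding protein, was the most abundant and averaged 12 FPKM at day 3 against 8.78 at day 0 (0.40, edgeR adjusted p 0.0155). Adamtsl2 averaged 2.74 ± 0.0555 FPKM at day 3 against 0.752 ± 0.0601 at day 0 and was higher by 1.81 ± 0.12 (edgeR adjusted p 3.42e-06), and at 0.768 ± 0.0391 FPKM its day 21 level was lower than at day 3 (-1.90, edgeR adjusted p 1.62e-05). Adamtsl5 and Adamtsl3 averaged 2.61 and 0.794 FPKM at day 3 against 1.68 and 0.423 at day 0. Their calls at day 3 against day 0 (0.58 and 0.86, edgeR adjusted p 0.0353 and 0.0228), and that of Adamtsl4, were each lost without day 0 replicate 1 or 3 or day 3 replicate 1 and, for some, without further libraries. Adamtsl1 was not called.

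The patterns of calls below were counted for the members and not over all genes. They describe the members and cannot be set beside a share of all genes. By their calls across the comparisons, 11 members were higher than day 0 on both later days and lower at day 21 than at day 3: Timp1, Mmp2, Mmp8, Mmp11, Mmp14, Mmp19, Adam8, Adam12, Adamts5, Adamts7 and Adamts14. Another 11 were higher at day 3 than at day 0, lower at day 21 than at day 3 and not called at day 21 against day 0, namely Mmp25, Mmp28, Adam9, Adam15, Adamts1, Adamts2, Adamts8, Adamts9, Adamts12, Adamts15 and Adamtsl2. Of these 11, 6 were called higher at day 21 than at day 0 without day 21 replicate 2 (Mmp25, Mmp28, Adam9, Adamts1, Adamts9 and Adamts12). Over all genes the share so called went from 17.9% to 25.1% in that fit. The call of Adamts2 at day 21 against day 3 (edgeR adjusted p 0.0488) was lost under 14 of 19 alternatives. A group of 6, made up of Timp3, Mmp13, Mmp23, Adam5, Adamts10 and Adamtsl3, was higher than day 0 on both later days and not called between them. The call of Adamtsl3 at day 21 against day 0 (edgeR adjusted p 0.0182) was lost under 5 of 18 alternatives, with adjusted p up to 0.0691. Lower at day 3 than at day 0 and higher again at day 21 than at day 3 were Adam1a, Adam18, Adam22, Adam23 and Adamts17, of which Adam23 was also lower at day 21 than at day 0. For Adamts17 the call at day 21 against day 3 (edgeR adjusted p 0.0358) was lost under 8 of 18 alternatives. Mmp17 and Mmp24 were lower than day 0 on both later days, and Mmp15 and Adamts4 were lower at day 21 than on both earlier days. Adam18 averaged at most 0.301 FPKM on any day, and its call at day 3 against day 0 was lost under 13 of 17 alternatives. Adam5 averaged at most 0.262 FPKM and had 7 counts over day 0, and its own calls were not followed across the alternatives.

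Of 11 tested members not called in any comparison, Timp2, Timp4, Adam11 and Adamtsl1 were above 1 FPKM on every day. The others were Mmp16, Adam21, Adam32, Adamts6, Adamts16, Adamts18 and Adamts19. Without day 21 replicate 2, 7 of the 11 were called in at least 1 comparison (Mmp16, Timp4, Adam11, Adamts6, Adamts16, Adamts18 and Adamtsl1). Calls over all genes also rose in that fit, and the share of all genes without a call was not counted. A further 10 members had counts but were too low to test, with a day mean of at most 0.28 FPKM, namely Mmp1a, Mmp10, Mmp21, Mmp27, Adam2, Adam3, Adam4, Adam7, Adam26b and Adam28. No count in any library was recorded for 15 members, namely Mmp1b, Mmp7, Mmp20, Adam1b, Adam6a, Adam6b, Adam20, Adam24, Adam25, Adam26a, Adam29, Adam30, Adam34, Adam39 and Adamts13. Of the 25 untested members 17 were Adam genes, and many of these are known from testis. Mmp1a and Mmp1b, Adam1a and Adam1b, Adam6a and Adam6b, and Adam26a and Adam26b are close copies, so their reads may have been split or dropped in counting and their values are uncertain.

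Day 21 replicate 2 touched the families unequally. It was the lowest of the 3 day 21 libraries in FPKM for 36 of 59 tested members, the highest for 14 and between for 9, beside 44.2% lowest and 45% highest over all tested genes. For the ADAMTS genes it was lowest in 17 of 18 cases and highest in none, for the MMP genes lowest in 6 and highest in 7 of 16, and for the ADAM genes lowest in 9 and highest in 4 of 16. Relative to the mean of the other day 21 libraries, its level was 0.0292 for Adamts12, 0.205 for Adamts6, 0.27 for Adamts3 and 0.467 for Adamts9. The ratio was 2.37 for Timp1 and 2.52 for Mmp23, which were high in it. Without this library 25.1% of all genes were called higher at day 21 than at day 0, in place of 17.9%. Members so called numbered 9 ADAMTS genes in place of 5, 8 ADAM in place of 4 and 12 MMP in place of 9. Against day 3, 7 ADAMTS genes were higher at day 21 without this library in place of 1, beside 23.5% of all genes in place of 11.7%. The members that were called at day 21 against day 3 only without it were Mmp24, Adamts3, Adamts6, Adamts10, Adamts16, Adamts18, Adamts20 and Adamtsl3, which were higher, and Mmp23, Timp3, Timp4, Adam19 and Adamtsl4, which were lower. At day 21 against day 0, Mmp16, Adam22 and Adamtsl1 were also higher only without it. Adamts6, a relative of Adamts10, is an example, at 0.687 ± 0.117, 0.796 ± 0.196 and 1.18 ± 0.738 FPKM at days 0, 3 and 21, with 1.55, 0.328 and 1.65 FPKM in the day 21 libraries, and it was called higher at day 21 than at day 0 without replicate 2 (1.12, edgeR adjusted p 0.00231).

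**Figure D4:**
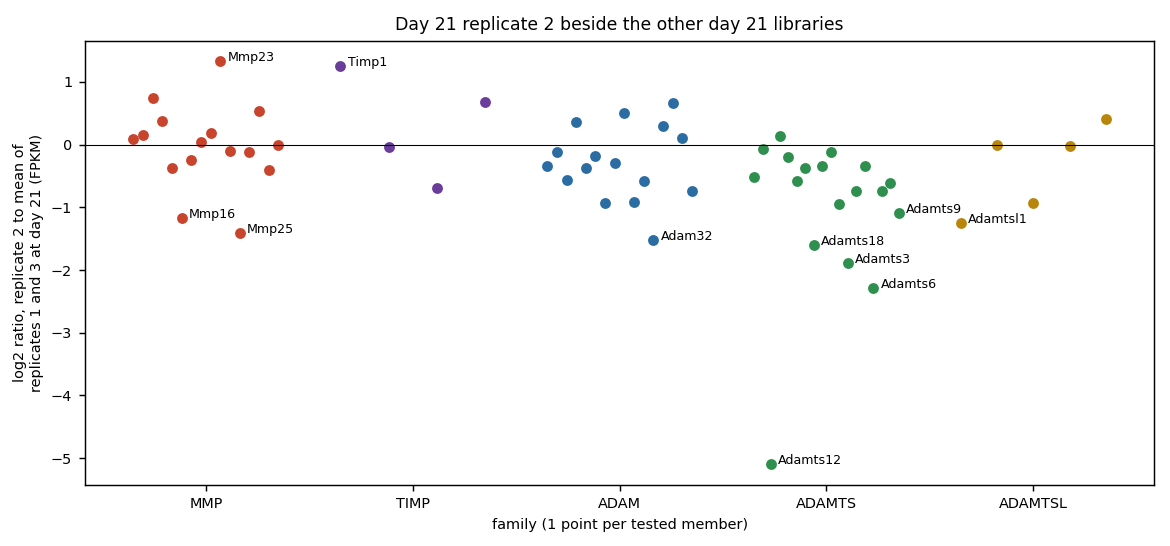
Log2 ratio of FPKM in day 21 replicate 2 to the mean of replicates 1 and 3 of that day for each tested member, by family, with names for members past a ratio of 2 in either direction. The ADAMTS points lie below 0 with few exceptions, down to Adamts12 at a ratio of 0.0292, while Timp1 (2.37) and Mmp23 (2.52) lie above 0.

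Genes linked to these proteases, or to protease inhibition more widely, were counted from 5 lists. Their counts stand beside 24.8% of all genes higher and 19.5% lower at day 3 against day 0, 17.9% and 11.3% at day 21 against day 0, and 11.7% and 16.1% at day 21 against day 3. Of 15 tested activators and cofactors, which remove pro-domains, activate plasminogen or carry ADAM10 and ADAM17 to the surface, 8 were higher and 2 lower at day 3 than at day 0. The urokinase receptor Plaur averaged 6.62 ± 0.263 FPKM at day 3 against 0.129 ± 0.039 at day 0 (5.58 ± 0.23, edgeR adjusted p 2.66e-07), and urokinase itself, Plau, 8.37 ± 0.663 against 0.86 ± 0.0528 FPKM (3.23 ± 0.13, edgeR adjusted p 2.15e-07). At day 21 Plau averaged 11.7 ± 0.476 FPKM and was higher than at day 0 by 3.64 ± 0.13 (edgeR adjusted p 7.39e-07). The ADAM17 carriers Rhbdf1 and Rhbdf2 were higher at day 3 than at day 0 by 1.85 ± 0.12 and 2.99 ± 0.18 (edgeR adjusted p 2.46e-06 and 1.74e-06). Of the 15, 5 were higher and 1 lower at day 21 than at day 0, or 5 and 3 without day 21 replicate 2. Without that library 25.1% of all genes were higher and 22.4% lower at day 21 against day 0. Against day 3 these shares were 23.5% and 25.7%.

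Of 14 tested protease inhibitors outside the TIMP family, 8 were higher and 4 lower at day 3 than at day 0 (median 1.39), and 7 were higher and 2 lower at day 21 than at day 0 (median 1.01). This list mixes inhibitors of metalloproteases or of the plasminogen system with cystatins and thrombospondins, so it is not a list of metalloprotease inhibitors alone. Thbs1, a matricellular thrombospondin, averaged 37.2 ± 0.541 FPKM at day 3 against 1.23 ± 0.163 at day 0 (4.87 ± 0.30, edgeR adjusted p 2.33e-06). The cystatin Cst7 averaged 0.214 ± 0.0424, 8.36 ± 1.28 and 43.4 ± 13.6 FPKM at days 0, 3 and 21 and was higher than day 0 on both later days (5.20 ± 0.32 and 7.50 ± 0.32, edgeR adjusted p 2.33e-06 and 9.11e-07). The broad protease trap A2m averaged 10.5, 47.7 and 36.6 FPKM at days 0, 3 and 21 and was higher on both later days (2.13 ± 0.10 and 1.67 ± 0.10, edgeR adjusted p 5.5e-07 and 6.03e-06). Spock1, Spock2, Spock3 and Serpini1 were the 4 that were lower at day 3, with log2 fold changes of -0.91 to -1.07.

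Of 20 matrix substrates, 17 were higher and 2 lower at day 3 than at day 0 (median 2.95), 11 were higher and 2 lower at day 21 than at day 0 (median 0.67), and 18 were lower and 1 higher at day 21 than at day 3 (median -1.58). Tenascin C (Tnc) averaged 27.4 ± 0.923 FPKM at day 3 against 0.882 ± 0.0606 at day 0 (4.90 ± 0.11, edgeR adjusted p 3.33e-08) and fibrillar collagen Col1a1 168 ± 2.04 against 7.2 ± 0.249 FPKM (4.49 ± 0.13, edgeR adjusted p 6.22e-08). Fibroblast and meningeal markers, which include some of these collagens, were called higher in 8 of 8 cases at both later days against day 0, with summed levels of 39.2 to 41.5, 550 to 554 and 286 to 356 FPKM at days 0, 3 and 21 and none without counts. Endothelial markers had summed levels of 47.3 to 57.6, 157 to 165 and 44.8 to 67 FPKM at days 0, 3 and 21, and none lacked counts. Against day 0, 5 of 6 were higher and none lower at day 3, and none was higher and 1 lower at day 21. All 6 were lower at day 21 than at day 3. The part of these markers in the values of Mmp2, Mmp14 and the ADAMTS genes was not tested.

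Of 21 tested membrane proteins known to be shed by ADAM10 or ADAM17, 14 were higher and 3 lower at day 3 than at day 0 (median 1.70). Cd44, a receptor for hyaluronan, averaged 9.59 ± 0.468 FPKM at day 3 against 1.11 ± 0.167 at day 0 (3.06 ± 0.14, edgeR adjusted p 4.01e-07). The neuronal chemokine Cx3cl1 was lower at 36.3 ± 0.824 against 74.2 ± 3.79 FPKM (-1.09 ± 0.10, edgeR adjusted p 2.2e-05). Of 14 ligands and partners of the non-catalytic neural ADAMs, 1 was higher and 9 were lower at day 3 than at day 0 (median -1.13), and 1 was higher and 6 were lower at day 21 than at day 0 (median -0.59), or 3 and 10 without day 21 replicate 2. Between the later days, 7 were higher and 1 lower at day 21 than at day 3, or 12 and 1 without that library. The LGI2 ligand, Lgi2, averaged 16.2 ± 0.567 FPKM at day 3 against 42.9 ± 3.62 at day 0 (-1.45 ± 0.13, edgeR adjusted p 2.2e-05), and the axonal potassium channel Kcna2 11.4 ± 0.456 against 34.2 ± 0.626 FPKM (-1.64 ± 0.19, edgeR adjusted p 0.000116). The exception was Lgi4, a ligand known from Schwann cells, which was higher at day 3 at 29.1 ± 0.31 against 13 ± 1.31 FPKM (1.11 ± 0.10, edgeR adjusted p 2.65e-05). Schwann cell markers had summed levels of 635 to 655 FPKM at day 3 against 151 to 187 FPKM at day 0, and their part in the Lgi4 value was not tested.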

How the data were processed

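Poly-A RNA libraries were prepared with a TruSeq kit and sequenced in pairs on an Illumina instrument, per the labels' protocols. HISAT2 and StringTie are named without versions in the submitters' processing notes, which also name the human build GRCh38. The deposited loci match mouse build GRCm38: GENCODE M21 holds 34267 of the gene IDs, 27686 of them at an identical locus. The sources used here do not give alignment settings, annotation or use of strand. The deposited table gives whole-number counts per gene, not normalized, and FPKM values. Within each gene, FPKM was proportional to the deposited count over the library total. The largest deviation across libraries was 0.00161% over the 12001 genes that had 50 counts or more in all libraries. The gene lengths behind the FPKM were not checked.

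All 9 libraries entered 1 robust quasi-likelihood fit of edgeR 4.0.16 in R 4.3.3 on the counts, with TMM scaling and its default expression filter (16494 genes tested, 6 residual degrees of freedom, common biological coefficient of variation 0.205). P-values are two-sided and Benjamini-Hochberg adjusted over all tested genes, with 0.05 as the threshold. SEs of log2 fold changes are their size over the square root of F. The fit was tested on simulated counts. Members, gene lists and tests were chosen with earlier results of these data known. Named genes are the TIMP genes, members at 1 FPKM or more on any day, and called members at 0.3 FPKM or more in the higher day. Values for every library are given for TIMP genes and for the 6 highest and 6 lowest called log2 fold changes per comparison among those at 1 FPKM or more, with some further members added for their role. In each gene list the rule took up to 4 called genes, those at 1 FPKM or more that changed most; the lecticans, Cx3cl1, Lgi4, A2m at day 3 and the Spock genes and Serpini1 were added after their values were seen. Not every gene the rule took is reported here. Exon overlap was computed on GENCODE M21 and named above 20% of exon bases. Promoter windows came from RefSeq. Protein motifs were planned and not analysed here. Alternatives were DESeq2 1.42.0, limma 3.58.1 on log2 FPKM with pseudocounts of 1 and 0.1, limma voom with sample weights, other scaling, filters and fits, a block for the replicate number, and leaving out each library.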

Additional observations from a re-analysis of the deposited data

How the results depend on the processing

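Of 102 calls of named members, none changed direction under any alternative, and over all 1919 recomputed values 1768 stayed called and 151 did not. Without day 21 replicate 2, 101 of the 102 stayed called and 1 was lost. The members called higher and lower numbered 34 and 9 at day 3 against day 0, 21 and 7 at day 21 against day 0, and 8 and 25 at day 21 against day 3. With each library left out in turn these counts ran from 31 to 38 and 6 to 9, from 16 to 33 and 5 to 8, and from 3 to 16 and 21 to 30, the highest of each day 21 range coming without day 21 replicate 2. Fits of only the days compared gave 4 lower at day 21 against day 0 and 5 higher at day 21 against day 3. A filter of 1 FPKM in 3 libraries, which tests fewer genes, gave 5 higher at day 21 against day 3, and voom with sample weights gave 19. With the replicate number as a block the counts were 34 and 7, 18 and 7, and 6 and 24. Same-numbered libraries deviated from their group means with correlations of -0.146 to 0.107. With 3 libraries for each day, and day 21 replicate 2 apart from its group, such values cannot decide whether the number marks a pairing or batch. Counts over all genes also moved: lower at day 3 against day 0, 3217 became 5239 with sample weights and 4891 without day 21 replicate 2. Lower at day 21 against day 0, 1864 became 801 in the fit of those days, 1218 and 1152 with limma on log2 FPKM, 3956 with sample weights and 3748 without day 21 replicate 2, and 1011 at the least without 1 day 0 library. At day 21 against day 3, 1928 higher became 4441 with sample weights and 3941 without day 21 replicate 2, or 1006 without day 3 replicate 1, and 2657 lower became 4853 and 4305 under the first pair of these. The cause of these shifts was not tested. Members with day means under about 0.3 FPKM rest on few counts, and no bound or interval covers more than counting error.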
